A study of Homo sapiens with 4 samples.

Results

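The regions described here are sites of the transcription factor TBX3 at gene promoters in 501mel, an established human melanoma cell line. They were taken from the list of ChIP replicate 1 as the peaks that the deposited annotation calls a promoter, provided that the summit (the position of highest signal) and a summit of ChIP replicate 2 were each other's nearest and lay within 200 bp. Of 756 promoter peaks in replicate 1, 573 met this rule (75.8%, 95% Wilson interval 72.6 to 78.7), and 69.9% of replicate 1 peaks of every class had such a partner. That contrast set the membership and carries no finding. The 573 sites were 1.76% of the 32479 replicate 1 peaks and 2.52% of the 22702 regions found in both replicates. Replicate 2 held 40494 peaks, of which 857 were promoter peaks.

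The samples were 2 chromatin immunoprecipitation (ChIP-seq) libraries and 2 input libraries from the same line, and the inputs, which carry no peak list, were not analysed here. Both ChIP libraries were made with an antibody against the HA tag from cells carrying TBX3 with a triple HA tag, grown in RPMI-1640 with fetal bovine serum, and there was no second treatment, genotype or time. The binding is therefore that of a tagged protein in a single cell line. The labels give neither the promoter that drives the tagged protein nor whether the replicates came from separate cultures. Read depth is unknown because the lists hold no read counts, the scale of the peak score is not stated, and scores were used to rank peaks within a list. Wilson intervals below cover counting error over regions, which are not replicates of a condition.

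TBX3 belongs to the T-box family, whose members bind DNA through a conserved domain that recognises a short element with the core GGTGTGA. It is best known as a repressor that acts during limb, heart and mammary development, and in melanoma it is known for lowering the cell cycle inhibitors at the CDKN2A locus and the adhesion protein E-cadherin. Pigment cells make melanin in melanosomes, and many genes of that pathway are switched on by MITF, the lineage factor of melanocytes, which binds the E-box CACGTG and the M-box, an extended form of CATGTG.

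Sequences at some of the sites are given first, because the motifs in them recur in the results. They come from RefSeq promoter windows of the build GRCh38.p14, run 5′ to 3′ on the strand of the window's gene, end before the start site, and carry in capitals each match to the T-box element (GGTGTGA, or its reverse complement TCACACC), the E-box or the M-box core (CATGTG, or its reverse complement CACATG). At TYR, DCT and TYRP1, the genes of the melanin-making enzymes tyrosinase, dopachrome tautomerase and tyrosinase-related protein 1, the stretches at chr11:89177752-89177871 (plus strand), chr13:94479807-94479926 (minus strand) and chr9:12693265-12693384 (plus strand) hold M-box cores. In replicate 1 they were centred 75 and 17 bp from the summit at TYR, 29 and 52 bp at DCT and 22 bp at TYRP1, where another lay outside the stretch at 111 bp.
TYR: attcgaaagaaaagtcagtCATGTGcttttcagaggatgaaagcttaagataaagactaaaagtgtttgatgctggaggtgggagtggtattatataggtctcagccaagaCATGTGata
DCT: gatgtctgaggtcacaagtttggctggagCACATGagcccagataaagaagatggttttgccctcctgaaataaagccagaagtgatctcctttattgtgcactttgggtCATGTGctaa
TYRP1: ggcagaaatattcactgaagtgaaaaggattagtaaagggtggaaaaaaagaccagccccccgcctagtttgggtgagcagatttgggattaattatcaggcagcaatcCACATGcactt

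The next stretches are from sites with a T-box element within 50 bp of the replicate 1 summit, the 5 of lowest rank sum whose element lies ahead of the start. They lie at LOC285000 (now LINC02946), a non-coding RNA gene, at chr2:105610575-105610694 (minus strand), at LRIG1, which encodes a membrane protein that restrains growth factor receptors, at chr3:66501214-66501333 (minus strand), in the window of HNRNPD-DT beside HNRNPD, an RNA-binding protein gene, at chr4:82374354-82374473 (plus strand), at DLGAP1-AS2, an antisense RNA gene, at chr18:3603556-3603675 (plus strand), and at USP54, a gene of the ubiquitin-specific protease family, at chr10:73553471-73553590 (minus strand). In replicate 1 the T-box element was centred 6 bp from the summit at LOC285000, 22 bp at LRIG1, 0 bp at HNRNPD, 17 bp at DLGAP1-AS2 and 29 bp at USP54.
LOC285000: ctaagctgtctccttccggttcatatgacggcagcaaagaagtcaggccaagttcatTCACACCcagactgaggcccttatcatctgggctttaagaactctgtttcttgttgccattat
LRIG1: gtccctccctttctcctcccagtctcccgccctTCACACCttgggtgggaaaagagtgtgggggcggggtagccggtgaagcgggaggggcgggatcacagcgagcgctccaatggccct
HNRNPD-DT: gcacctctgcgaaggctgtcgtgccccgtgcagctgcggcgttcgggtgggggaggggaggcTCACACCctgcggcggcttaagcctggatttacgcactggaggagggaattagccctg
DLGAP1-AS2: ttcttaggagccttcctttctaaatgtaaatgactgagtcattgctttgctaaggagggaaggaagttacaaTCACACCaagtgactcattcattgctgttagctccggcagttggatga
USP54: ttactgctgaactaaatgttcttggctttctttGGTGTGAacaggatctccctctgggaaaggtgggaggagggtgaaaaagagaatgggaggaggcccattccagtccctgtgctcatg

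Stretches with an E-box are shown for BHLHE41 at chr12:26125071-26125190 (minus strand), MAST2 at chr1:45864228-45864347 (plus strand) and ZNF292 at chr6:87155429-87155548 (plus strand). BHLHE41 encodes a repressor of the circadian clock that itself binds E-boxes, MAST2 a protein kinase and ZNF292 a zinc finger protein. In replicate 1 the E-box shown was centred 48 bp from the summit at BHLHE41, 20 bp at MAST2 and 41 bp at ZNF292. The ZNF292 window also holds, outside the stretch, an E-box 8 bp and a T-box element 25 bp from that summit. The BHLHE41 and ZNF292 stretches end before the summits.
BHLHE41: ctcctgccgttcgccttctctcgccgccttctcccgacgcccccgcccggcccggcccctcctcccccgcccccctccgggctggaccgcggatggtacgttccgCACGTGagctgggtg
MAST2: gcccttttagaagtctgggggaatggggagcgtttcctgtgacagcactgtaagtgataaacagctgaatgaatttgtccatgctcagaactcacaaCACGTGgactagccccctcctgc
ZNF292: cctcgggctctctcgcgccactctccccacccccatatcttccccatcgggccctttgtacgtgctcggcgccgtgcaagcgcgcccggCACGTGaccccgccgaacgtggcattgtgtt

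The strongest site of all, at ARID5B, showed none of these letters in its stretch at chr10:62049107-62049210 (plus strand), which ends before the summits of both replicates. The stretch of 120 bases at the ALK site, chr2:29223944-29224063 (minus strand), holds none either, but the window it was taken from has an E-box outside it, 85 bp from the replicate 1 summit and 50 bp from that of replicate 2.
ARID5B: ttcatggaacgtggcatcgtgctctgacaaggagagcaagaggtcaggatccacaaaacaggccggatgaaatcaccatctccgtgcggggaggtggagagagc
ALK: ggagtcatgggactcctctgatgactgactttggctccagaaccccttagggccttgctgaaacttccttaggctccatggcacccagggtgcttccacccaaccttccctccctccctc

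The summits of a site lay close together in the 2 replicates, with a median gap of 18 bp (quartiles 8 and 42 bp) and a largest gap of 189 bp. Both lists named the same gene at 570 of 573 sites (99.5%), and 556 (97.0%) were also called a promoter in replicate 2. Of the other 17, replicate 2 called 8 intron, 3 5′ UTR, 3 exon, 2 intergenic and 1 a transcript end. Just inside the pairing limit were sites at LOC105375483 (184 bp apart), RANBP3L (187 bp) and VTRNA1-1 (189 bp), and just outside it were peaks at SLC5A4 (204 bp), CD55 (221 bp) and LINC02525 (230 bp). The scores on both sides of the limit were under the medians of the promoter sites (29.99 in replicate 1 and 41.0 in replicate 2). They lay between 6.68 and 26.0 over both replicates for the 3 inside and between 2.19 and 14.1 for the 3 outside.

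The sites named 565 different genes. Protein-coding genes made up 421 of 573 (73.5%, 69.7 to 76.9) and genes typed as non-coding RNA 136 (23.7%, 20.4 to 27.4), with 10 pseudogenes, 3 small nucleolar and 3 small nuclear RNA genes as the remainder. Over the regions of all other annotation classes found in both replicates, the nearest gene was protein-coding at 57.5%, non-coding RNA at 29.5% and a pseudogene at 12.1%. The 183 promoter peaks of replicate 1 without a partner were of similar make-up, with 76.0% protein-coding (69.3 to 81.6) and 20.2% non-coding RNA (15.0 to 26.6), intervals that overlap those of the sites.

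Peak scores ran from 2.11 to 561.7 in replicate 1 (median 29.99) and from 2.19 to 593.0 in replicate 2 (median 41.0). Expressed as a percentile of all peaks in the same list, the median site stood at 75.2 in replicate 1 and 78.2 in replicate 2, against 63.6 and 70.2 for regions of the other classes found in both replicates. The spread was wide, with quartiles of 54.5 and 88.9 in replicate 1. Above the percentile of 90 in its list stood 121 sites in replicate 1 (21.1%, 18.0 to 24.6) and 142 in replicate 2 (24.8%, 21.4 to 28.5), against 13.95% and 17.5% of the other regions. Of the other annotation classes, the 5′ UTR was nearest, with median percentiles of 77.8 and 79.8 over 67 regions. Promoter peaks without a partner stood at 32.8 in replicate 1 and 39.4 in replicate 2, and the pairing is not independent of the score. Spearman's rho of the scores of the 2 replicates was 0.889 across the 573 sites and 0.850 across the 22129 other regions, as a description over regions that share the same pair of libraries.

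**Figure D1:**
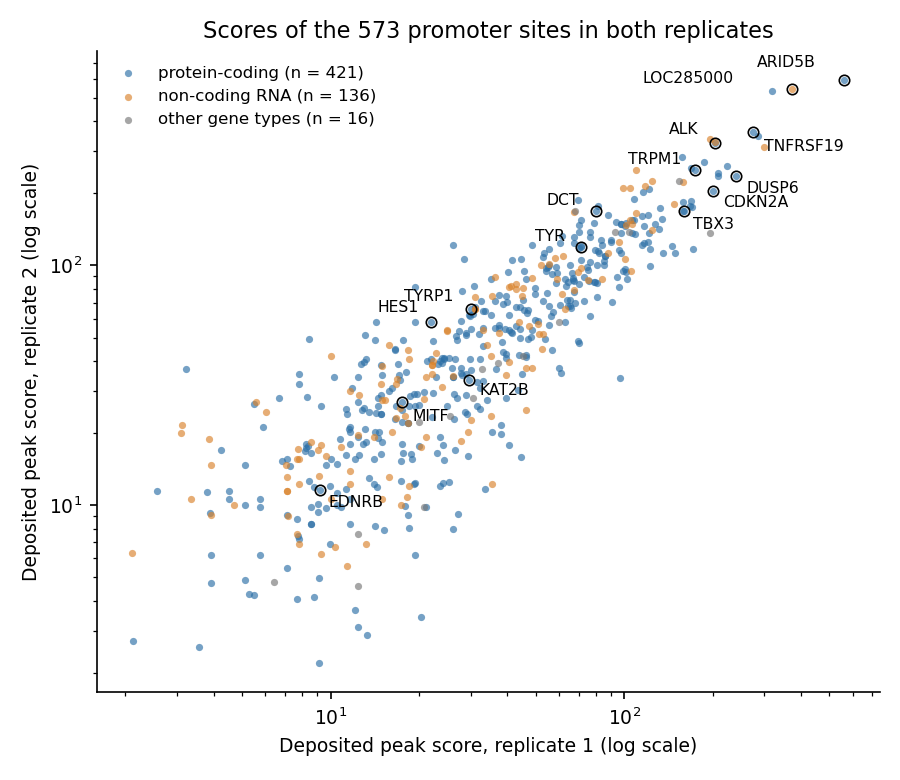
Deposited peak score of each of the 573 promoter sites in replicate 1 (x axis, log scale) and replicate 2 (y axis, log scale), coloured by gene type, with some genes of the text circled. The sites follow the diagonal with rho = 0.889, and ARID5B is at the top with 561.7 and 593.0.

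**Figure D2:**
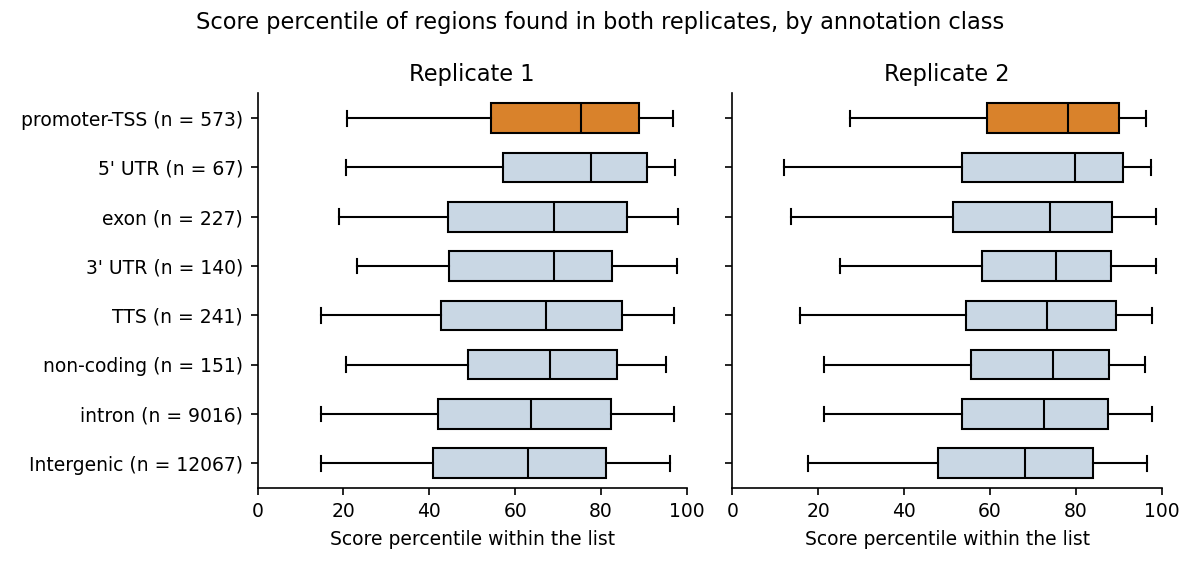
Score percentile within its own list (x axis) of regions found in both replicates, for each annotation class and each replicate; boxes span the quartiles, the line is the median and whiskers reach the 5th and 95th percentiles. Promoter sites have medians of 75.2 and 78.2, next to the 5′ UTR at 77.8 and 79.8.

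The strongest site, at ARID5B, a gene for a DNA-binding protein of the AT-rich interaction domain family, had scores of 561.7 and 593.0 (replicates 1 and 2) and ranked 22 and 64 in the lists, 26 bp downstream of a start. LOC285000 followed with 374.5 and 543.2, 81 bp upstream. TMCC3, a gene of an endoplasmic reticulum membrane protein, had 319.3 and 535.3. TNFRSF19, a receptor of the tumour necrosis factor family, had 275.3 and 358.3, 137 bp upstream. These 4 sites were high in both replicates. FAM69C (now DIPK1C) had 285.0 and 347.4 and LINC01780 had 299.9 and 310.1, both near the outer edge of the promoter class at 981 and 972 bp upstream. KU-MEL-3, a non-coding gene known as a melanoma antigen, had 204.2 and 327.3. ALK, a receptor tyrosine kinase gene, had 204.2 and 324.3 at a start inside the gene. Transcripts of ALK that begin inside the gene are known from melanoma. The 12 sites with the lowest rank sums were completed by DLGAP1-AS1 (195.9 and 337.1), the kinesin gene KIFC3 (223.4 and 258.7), DUSP6 (240.1 and 235.8) and FAM214A (186.5 and 270.0). DUSP6, the phosphatase of the kinase ERK, ranked 386 in replicate 1 and 927 in replicate 2.

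Summits were most frequent beside the start. By HOMER's default the promoter class runs from 1 kb upstream to 100 bp downstream of a start, so the class itself sets both the upstream share and the outer limits. The signed distance had a median of -118 bp (replicate 1) and -119 bp (replicate 2), with quartiles of -341 and 2 bp in replicate 1, where negative values are upstream. Upstream of the start lay 426 sites (74.3%, 70.6 to 77.8) in replicate 1 and 424 (74.0%) in replicate 2. Within 100 bp of the start on either side lay 239 sites (41.7%) and within 500 bp 468 (81.7%), while 102 (17.8%) lay more than 500 bp upstream. The first 100 bp downstream held 115 sites, and the last 100 bp upstream 122, so within the reach that the class gives to both sides the summits were about evenly placed. The next 100 bp upstream held 83. More than 100 bp downstream of the nearest start, beyond the default class, lay 30 sites (5.24%), and at 21 of them the annotated promoter was that of another gene. Median score percentiles in replicate 1 lay between 70.7 and 78.0 over the distance classes, with no steady order. The classes were set by the replicate 1 distance. In them the replicate 2 medians were 82.6 from 250 to 100 bp upstream and 77.4 in the last 100 bp upstream. Downstream they were 74.1 in the first 100 bp and 71.6 from 100 bp on. That last class held 32 sites, with wide quartiles of 56.9 and 88.6.

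Sites at non-coding RNA genes lay farther upstream than those at protein-coding genes. Their medians were -164 and -178.5 bp in the 2 replicates, against -98 and -94 bp. In replicate 1, 117 of 136 (86.0%, 79.2 to 90.9) were upstream, against 297 of 421 at protein-coding genes (70.5%, 66.0 to 74.7), and 34 (25%) against 66 (15.7%) lay over 500 bp upstream. Their intervals for the upstream share do not overlap, and those for the farthest class do. Scores differed little, with median percentiles of 70.0 and 76.2 for non-coding RNA genes and 75.7 and 79.3 for protein-coding genes.

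**Figure D3:**
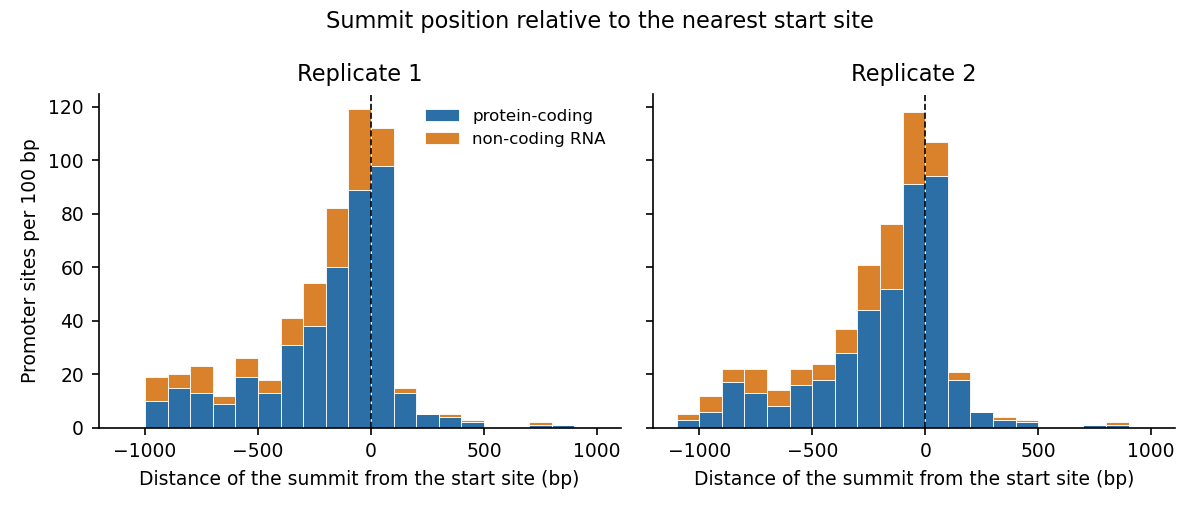
Signed distance from the summit to the nearest start (x axis, bp, negative upstream) in bins of 100 bp, with the number of protein-coding and non-coding RNA sites stacked (y axis), one panel per replicate. Both replicates peak in the bins on either side of the start, and the medians of non-coding RNA sites, -164 and -178.5 bp, lie upstream of the -98 and -94 bp of protein-coding sites.

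Among the 136 sites at non-coding RNA genes, 43 carried LINC symbols, 40 LOC symbols, 26 were antisense, divergent or intronic transcripts of a named gene, 17 were microRNA genes, 3 were microRNA host genes and 7 had other names. The host genes, named here because they are so few, were MIR17HG, MIR4500HG and MIR3142HG. MIR17HG, which carries the oncogenic miR-17-92 cluster, had scores of 105.7 and 94.3 with the summit 89 bp upstream of its start. MIR4500HG had 48.6 and 88.7 and MIR3142HG 16.8 and 33.6. The small nuclear RNA genes were RNU2-1 (37.2 and 39.3), RNU1-4 (30.5 and 28.0) and RNU4-2 (25.6 and 23.6), which encode RNAs of the spliceosome and have near-identical copies, so their assignment is uncertain. The small nucleolar RNA genes were SNORD13 (154.2 and 224.4), SNORD93 (103.9 and 138.1) and SNORD141B (6.43 and 4.78).

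The nearest gene is not always the gene whose promoter was annotated. At 37 of the 566 sites with a matched promoter transcript (6.54%, 4.78 to 8.88), that transcript belonged to another gene. CDKN2A, which encodes cell cycle inhibitors from more than 1 start, was named for a site (200.0 and 204.9) that lay 120 bp downstream of the first of its starts and in the promoter of the antisense gene CDKN2B-AS1. SNORD13 was named beside TTI2, and ID2-AS1 (106.1 and 149.1) beside ID2, a regulator that blocks basic helix-loop-helix factors. PSMB9 (37.5 and 54.7), a subunit of the immunoproteasome, was named at the promoter of TAP1, the peptide transporter of antigen presentation.

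Some sites lay at a start inside a gene rather than at its first. A RefSeq start of the named gene was within 1 kb at 414 of 573 sites, and the starts used do not cover every gene. Of the 168 at genes with several starts, 115 (68.5%, 61.1 to 75) were at a later start, against 60.0% of all starts of such genes. The ARID5B site was 147658 bp from the first start of that gene and the ALK site 697763 bp. MITF had its site 197128 bp from the first start, at the promoter from which the melanocyte isoform is known to be made. Its scores of 17.5 and 27.0 were under the medians of the promoter sites (29.99 and 41.0). They were above the medians of all peaks in each list (12.4 and 13.9). RBPJ, the DNA-binding protein of the Notch pathway, had its site at 156288 bp (65.2 and 100.8), and TRPM1 at 59435 bp.

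Of 20037 protein-coding genes, 409 (2.04%) were named at a promoter site. Over 18 lists of genes, 33 of 421 genes (7.84%, 5.64 to 10.8) had one. Some lists are of pigment cell genes and others of general cell functions, such as the ribosomal proteins. The lists were drawn up with earlier results of these data known, so the counts are descriptions. The list of melanosome structure and pigment enzymes had the highest share, with 8 of 16 genes. TRPM1, a cation channel gene of melanocytes, had the highest scores of them, 174.4 and 250.1. DCT had 80.4 and 168.4, and TYR 71.4 and 119.5 with the summit 24 bp upstream of the start in replicate 1 and 2 bp downstream in replicate 2. SLC45A2, a melanosome transporter, had 55.4 and 116.5, and GPR143, a melanosome receptor, 55.2 and 98.8. TYRP1 (29.99 and 65.7), SLC24A5, a melanosome cation exchanger (16.6 and 44.2), and GPNMB, a melanosome glycoprotein (20.8 and 29.6), ranked lower. Other shared regions within 10 kb numbered 6 at the TYR site, 3 each at DCT and SLC45A2, 1 each at GPR143 and SLC24A5, and 0 at TRPM1, TYRP1 and GPNMB.

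Of 13 melanosome transport genes, 3 had a promoter site. RAB27A, the GTPase that tethers melanosomes to the motor complex, had 97.6 and 148.8, SYTL2, which binds RAB27A, 79.1 and 150.3, and MLPH, the adaptor between RAB27A and myosin, 23.5 and 19.3. Of 20 transcription factors of the lineage, 4 had one. ETV1, an ETS factor, had 58.5 and 84.4, and SNAI2, a zinc finger factor of the neural crest, 13.1 and 51.4. MITF is given above, and SNAI1 had 14.5 and 26.0. Among 15 signalling receptors and ligands, MET, the receptor of hepatocyte growth factor, had 64.3 and 67.4 and EDNRB, the endothelin receptor of melanocytes, 9.21 and 11.5.

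The MAPK feedback and ETS output list had sites at 6 of 27 genes, DUSP6, FOS (90.4 and 127.3), ETV4 (79.5 and 116.1), SPRY2 (72.9 and 71.3), DUSP4 (26.3 and 29.1) and SPRED1 (9.97 and 12.0). DUSP6, DUSP4, SPRY2 and SPRED1 encode inhibitors of the pathway, and FOS and ETV4 transcription factors at its end. Of 19 Notch genes, the target genes HEY2 (84.1 and 121.8) and HES1 (22.1 and 57.8) had sites beside RBPJ. Of 26 Wnt genes, FZD2, a receptor (83.6 and 127.0), RNF43, which removes such receptors from the membrane (53.2 and 112.4), and the feedback inhibitor AXIN2 (38.6 and 69.1) had sites. Of 23 histone acetyltransferase and deacetylase genes, the acetyltransferases KAT5 (25.3 and 41.0) and KAT2B (29.7 and 33.1) had one.

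TBX3 was the single gene of 17 in the T-box family with a promoter site, with scores of 160.2 and 169.1 and the summit 121 bp upstream of its start in replicate 1 and 59 bp upstream in replicate 2. CDKN2A was the single gene of 23 cell cycle inhibitors and G1 regulators. The remaining 8 lists, with 222 genes in all, are those with no gene named as nearest to a promoter site. These lists were grouped by that outcome, so their count of 0 carries no finding. By the annotated promoter transcript, 2 of them had one, TAP1 at the PSMB9 site and the lysosomal enzyme gene GLA at the HNRNPH2 site. They were the BLOC and Hermansky-Pudlak complexes, replication and mitosis, cadherins and catenins, the BCL2 family, lysosome and autophagy, cytosolic ribosomal proteins, the DNA damage response, and interferon and antigen presentation. Within 10 kb of the start, 19 of these 222 genes (8.56%) had a shared region, against 10.1% of all protein-coding genes. The grouping lowers this share too, because promoter sites lie within 10 kb.

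More than 1 promoter site was found at 8 genes. TMCC3 had its stronger site at a later start and a second (61.1 and 35.6) with the summit on the first start. BHLHE41 had one 36 bp downstream of its start (132.5 and 174.0) and one 885 bp upstream (59.0 and 93.2). PACSIN2, a gene of a membrane-bending protein (109.3 and 134.7 against 7.70 and 4.06), and PDE4D, a phosphodiesterase that degrades cyclic AMP (106.0 and 136.8 against 6.85 and 15.2), each had a strong and a weak site at different starts. LINC00486 had 96.2 and 125.3 at one, where the annotated promoter was that of LOC100271832, and 42.8 and 79.8 at the other. The others were PPFIBP2, LINC00319 and SORBS2. The LINC00319 sites lay at separate positions on chromosome 21 (6091873 and 43446403 in hg38, replicate 1 summits). Whether reads can be told apart between these positions was not checked, so they may not be separate sites.

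For sequence content, 248 sites had their replicate 1 summit inside a RefSeq promoter window, 250 bp upstream to 50 bp downstream of a start, in 279 windows. Such windows were compared with all 34943 windows, from which chromosome 8 and some genes elsewhere, such as TBX3 and SLC45A2, are absent. Chromosome 8 held 28 of the 573 sites, while 159 had no RefSeq start of the named gene within 1 kb. Of the site windows 49.1% were CpG-rich (GC over 50% and CpG observed over expected above 0.6), against 46.6% of all windows. Each motif was searched on both strands. The T-box element GGTGTGA stood in 22 site windows (7.89%, 5.26 to 11.6), against 3.45% of all windows and 6.25% (2.70 to 13.8) of the 80 windows of promoter peaks without a partner. The E-box CACGTG stood in 55 (19.7%, 15.5 to 24.8), against 7.23% of all windows and 10.0% (5.15 to 18.5) of those without a partner. The M-box core CATGTG stood in 49 (17.6%, 13.5 to 22.5), against 11.1% and 22.5% (14.7 to 32.8). For each of these motifs the intervals with and without a partner overlap. Some sites lie in more than 1 window, so the intervals count some sequence more than once. E-box or M-box core stood in 97 site windows (34.8%), and the T-box element together with either in 8 (2.87%), against 17.6% and 0.733% of all windows.

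The longer forms TCACGTG (10.0% against 3.69% of all windows), TCATGTG (7.53% against 2.93%) and AGGTGTGA (2.87% against 0.982%), added after the first values were seen, contain the shorter ones, so their matches are a subset. Of the other motifs, the cyclic AMP element core TGACG stood in 32.6% of site windows (27.4 to 38.3) against 24.5% of all, the SOX core ACAAAG in 20.8% against 16.1%, the AP-1 element TGANTCA in 10.4% against 7.72% and the TEAD core GGAATG in 16.1% against 14.04%. The GC box GGGCGG (46.2% against 44.9%), CCAAT (31.2% against 34.6%), the ETS element CCGGAAG (8.60% against 10.2%), TATAAA (9.32% against 11.6%) and the YY1 element AAGATGG (3.23% against 5.85%) were near or under the share of all windows. None of these letters contains another, although neighbouring matches may share bases.

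**Figure D4:**
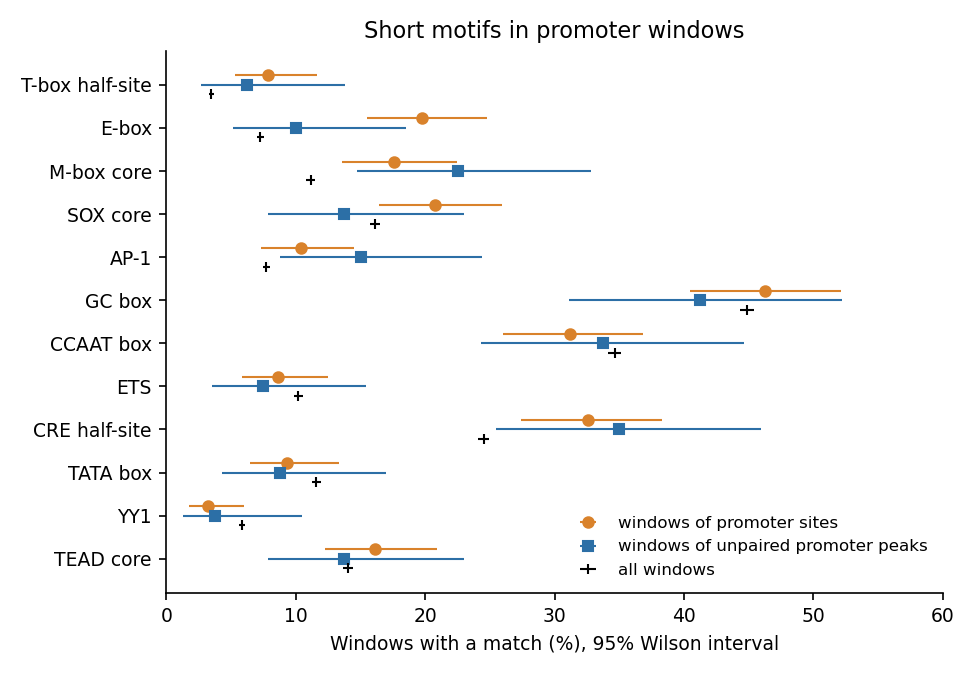
Percentage of promoter windows with a match on either strand (x axis, with 95% Wilson intervals) for 12 motifs, in the 279 windows of promoter sites, the 80 windows of unpaired promoter peaks and all windows. The E-box is at 19.7% in site windows against 7.23% of all windows, while the GC box is at 46.2% against 44.9%.

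The shares of the E-box and the M-box core differed by CpG content in site windows and also over all windows. Beside all windows of the same CpG content, the E-box share was higher in both kinds. The M-box core share was higher in the CpG-poor kind only. In CpG-rich site windows the E-box stood in 26.3% (19.6 to 34.2), against 10.2% of all CpG-rich windows, and the M-box core in 5.11% against 5.14%. In CpG-poor site windows the E-box stood in 13.4% against 4.61%, and the M-box core in 29.6% (22.7 to 37.5) against 16.4%. The longer TCATGTG stood in 14.1% of CpG-poor site windows against 4.60%. By rank, the T-box element stood in 11.1% (6.85 to 17.5) of windows of the higher-ranked sites and 4.86% of the lower-ranked, and the E-box in 14.8% and 24.3%. Neither pair of intervals was separate.

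Matches to the T-box element and the E-box stood near the summit. Of 22 T-box matches, 13 (59.1%, 38.7 to 76.7) were centred within 50 bp of the replicate 1 summit, and of 55 E-box matches 31 (56.4%, 43.3 to 68.6), where 30.4% of the bases of these windows lie. The shares with replicate 2 summits were 68.2% and 60.0%. The SOX core was at 43.9% (32.6 to 55.9) and the cyclic AMP element core at 39.3% (30.9 to 48.4), also with intervals above 30.4%, and with replicate 2 summits they were at 36.4% and 34.2%. The M-box core was at 38.6% (27.1 to 51.6) and the GC box at 31.3% (26.2 to 37.0), both with intervals that hold 30.4%. A match describes these letters and does not show that TBX3 or another factor was bound to them.

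**Figure D5:**
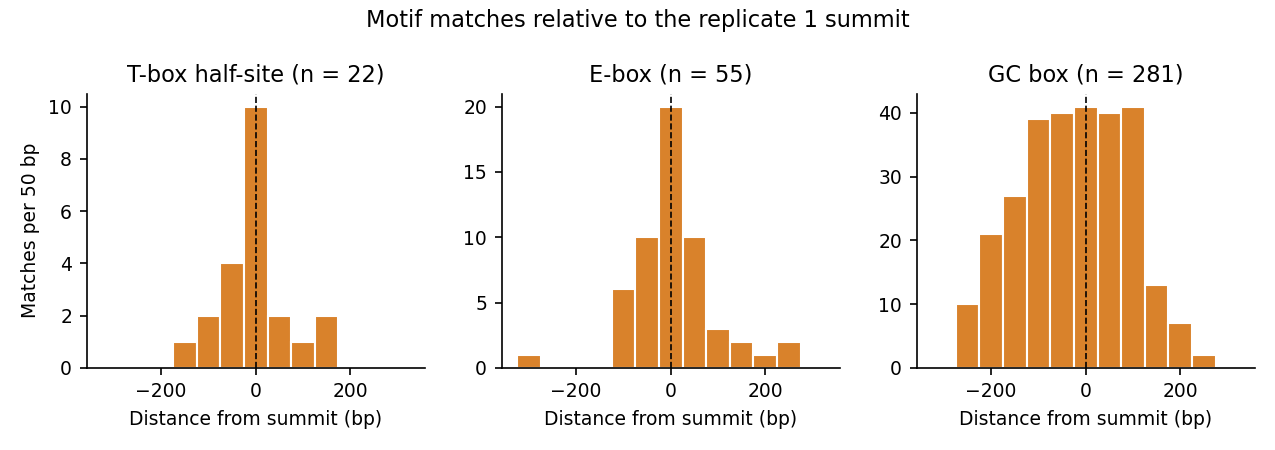
Number of motif matches (y axis) by distance from the replicate 1 summit (x axis, bp, in bins of 50 bp) for the T-box element, the E-box and the GC box in the windows of promoter sites. Within 50 bp of the summit lie 59.1% of T-box and 56.4% of E-box matches, against 31.3% of GC box matches.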

How the data were processed

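TBX3-HA binding was measured by ChIP-seq in 2 ChIP samples of 501mel cells; the 2 input samples were not analysed here. Groups and replicate numbers came from the sample titles. Per the file headers, each peak list was made by annotating summits with HOMER's annotatePeaks.pl against hg38, 1 list per sample. The submitters' processing notes name FastQC 0.11.7, cutadapt 2.8, Bowtie2 2.3.5, SAMtools 1.9 and MACS2 2.1.2, without their roles. The authors deposited a peak score on a scale that the headers do not state; it was used only for ranks within a list. The signed distance to the start, gene, gene type and annotation class are also as deposited. No read depth is known, so precision rests on the number of regions.

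Summits were paired when mutually nearest within 200 bp, with Python 3.11.15, pandas 2.3.3, numpy 2.4.6 and SciPy 1.17.1. The pairing code was run on simulated lists. Their gaps were well inside or well outside that limit, so gaps near it and dense clusters were not tried. Shares carry 95% Wilson intervals, and no conditions could be tested against each other, as only 1 was immunoprecipitated. The annotation gives no CpG islands at promoters, so the planned CpG island share was replaced by GC over 50% and CpG observed over expected above 0.6 in RefSeq windows (GRCh38.p14). All 573 gene identifiers and 566 promoter transcripts matched the gene table. The members and the gene lists were chosen with earlier results of these data known.

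Genes are named by a rule: the 12 sites with the lowest sum of score ranks, up to 3 genes of each list by rank sum, the 3 highest sites that are not protein-coding, up to 5 genes with most promoter sites, and TBX3. The other members of short lists or small counts, and the genes whose sequences are shown, were chosen after their values were seen. The alternatives tried were pairing within 100 or 500 bp, a promoter call in both replicates, scores at or above the median, main chromosomes, either replicate alone, other window sets, and promoter transcripts counted as genes.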

Additional observations from a re-analysis of the deposited data

How the results depend on the processing

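Of 61 alternatives to the 8 results, 48 left the value within its spread and 13 moved it. No alternative moved the protein-coding share, the CpG-rich share, the number of sites or the number of listed genes by more than its interval or 1.5 times. The median distance was -117 bp with pairing within 100 bp, -122 bp within 500 bp, -121.5 bp with a promoter call in both replicates and -119 bp with scores at or above the median; the spread between replicates it was set against is 0.707 bp. Using either replicate alone gave -132 to -117 bp, and a median score percentile of 66.1 to 68.3. With scores at or above the median in both lists the percentile was 83.2, because low scores are left out. With windows of every start of the genes named, whether or not a summit lies there, the T-box share was 4.66% and the E-box share 10.7%. The E-box share was 13.4% in CpG-poor and 26.3% in CpG-rich windows, an alternative chosen after seeing the data, as was counting promoter transcripts, which gave 35 listed genes in place of 33. No paired analysis was possible because the result comes from no test between groups and the input samples are not analysed here. Without depth, widths or input, the lists cannot tell weak binding from absent binding.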

Other observations

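Neighbouring regions were counted around each promoter site. Another region found in both replicates lay within 10 kb of 144 of the 573 sites (25.1%, 21.8 to 28.8), against 42.0% of regions of the other classes and 32.6% of those outside satellite repeats. Within 50 kb the shares were 61.1% and 72.1%. The site with most neighbours within 10 kb was TYR with 6, followed by LOC340357 and MITF with 4 each. A start on the opposite strand lay within 1 kb at 84 of 414 sites with a RefSeq start (20.3%), against 22.5% of all starts.

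By chromosome, 6 held the most sites, 52, and 38.1 of its protein-coding sites per 1000 protein-coding genes. Chromosomes 4 and 18 had 37.7 and 37.0 per 1000. The gene-dense chromosome 19 had 9 sites and 4.14 per 1000, and chromosome 16 had 10.5. As a share of the regions found in both replicates on the same chromosome, the sites were 4.17% on chromosome 19 (9 of 216), 3.34% on chromosome 6 and 1.44% on chromosome 16, against 2.52% over all chromosomes. These rates were not corrected for chromosome copy number in the line.

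On the short arm of chromosome 18, sites at DLGAP1-AS1 (195.9 and 337.1), DLGAP1-AS2 (88.1 and 113.0), GAPLINC (109.5 and 249.9) and TGIF1 (168.8 and 185.4) lay between 3449452 and 3603614 in hg38, chosen here after their values were seen.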
